A study of Mus musculus with 12 samples.

Results

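Cytosine methylation is written and erased by a small set of enzymes, and the messenger RNA of 7 of them was followed here in mouse liver: the DNA methyltransferases Dnmt1, Dnmt3a and Dnmt3b, the methylcytosine dioxygenases Tet1, Tet2 and Tet3, and the thymine DNA glycosylase Tdg. They were chosen by gene symbol because most of them are reported targets of the microRNA miR-29, and all 7 were found among the 21705 genes of the deposited table. The livers came from female C57BL/6J mice of 10 to 12 weeks that were dosed intravenously with saline (n = 6) or with LNA29 (n = 6), a pair of locked nucleic acid inhibitors, one for miR-29a and one shared by miR-29b and miR-29c, with 20 mg/kg of each. Tissue was taken on day 7 after dosing and after a fast of 18 h, and polyadenylated RNA from whole liver was sequenced as single reads. The controls received saline and not an unrelated locked nucleic acid, so that a response to miR-29 inhibition and a response to the chemistry of the inhibitor cannot be told apart in these 12 livers.

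In mammals DNMT3A and DNMT3B place methyl groups on unmethylated CpG sites, and DNMT1 copies the pattern to the new strand after replication. The TET proteins oxidise 5-methylcytosine in steps that use oxygen, iron and 2-oxoglutarate, and TDG cuts out the most oxidised forms so that base excision repair can put back an unmodified cytosine. In adult liver, where few cells divide, the balance between these writers and erasers is tied less to replication than in growing tissue. A microRNA pairs through its seed, bases 2 to 8, with complementary letters in the 3′ UTR of a messenger RNA and lowers its stability or translation.

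The mature miR-29 sequences of the mouse, from RefSeq, are printed because their shared seed defines the sites counted in the 7 genes. The seed is in capitals and is identical in the 3 family members.
miR-29a-3p: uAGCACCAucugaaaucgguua
miR-29b-3p: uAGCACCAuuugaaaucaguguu
miR-29c-3p: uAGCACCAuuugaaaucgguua

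Every gene was searched over its longest 3′ UTR (GENCODE M21 annotation of GRCm38), on the strand of the messenger RNA only. A seed match was TGGTGCT, the complement of bases 2 to 8, and it was called an 8mer where an A followed it (TGGTGCTA). The letters GGTGCTA without the first T were counted apart as 7mer-A1 sites, so that no site was counted under more than 1 type. Of the 12125 tested genes with a 3′ UTR, 15.5% held at least 1 seed match, 2.36% at least 2 and 0.470% at least 3.

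Tet3 had 8 seed matches in a 3′ UTR of 5669 bases, and no other tested gene had 7 or more. Dnmt3a had 5 matches in 6696 bases and Tet2 had 5 in 3058 bases, and only 8 tested genes, these 3 included, had at least 5. Tet1 had 7 matches in 7962 bases but was too scarce to be tested. Tdg had 3 matches in 2079 bases, and Dnmt3b had 1 in 1331 bases. Dnmt1 had none of the 3 site types in a 3′ UTR of 312 bases. The 3′ UTRs of Dnmt3a, Tet1 and Tet3 were long beside the median of 1142 bases over tested genes. A match describes letters in the reference and does not show that the site is used.

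The 8mer sites of Tet3, Dnmt3a, Tet2 and Tdg and the seed match of Dnmt3b are shown, each as 22 bases that end at the base opposite position 1 of the miRNA, with the match in capitals.
Tet3, chr6:83364336-83364343, minus strand, exon 11: aatagtctaataaaTGGTGCTA
Tet3, chr6:83363777-83363784, minus strand, exon 11: aggccgcttttagtTGGTGCTA
Dnmt3a, chr12:3911405-3911412, plus strand, exon 23: ccaggggaggtagcTGGTGCTA
Dnmt3a, chr12:3911474-3911481, plus strand, exon 23: gcggggtcccaagcTGGTGCTA
Tet2, chr3:133466173-133466180, minus strand, exon 11: gtgttaacattaaaTGGTGCTA
Tet2, chr3:133465116-133465123, minus strand, exon 11: aattcacatcacgaTGGTGCTA
Tdg, chr10:82649677-82649684, plus strand, exon 10: tcatgcattttccaTGGTGCTA
Dnmt3b, chr2:153686627-153686633, plus strand, exon 23: agagtagcccggcaTGGTGCTc

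Each value is a read estimate that the authors scaled to place the upper quartile of expressed genes at 1000 in a liver, and a gene without reads is listed at 1. Depth was between 7696081 and 19062437 reads on genes per liver, with a median of 12011981 in saline and 9123458 in LNA29 livers. On this scale 1 read was worth between 9.80 and 17.5 in saline and between 12.5 and 24.4 in LNA29 livers. The 7 genes are scarce, with at most 63 reads in any liver. One saline library, replicate 49, stood apart: albumin took 35.7% of its reads against 43.6% to 46.9% in the other 11, and long transcripts stood higher in it than in any other liver (Spearman rho of 0.50 across genes between transcript length and the deviation from the mean of all livers, from -0.29 to 0.28 in the others). That matters here because several of these transcripts are long, with Tet3 longer than 98.6%, Dnmt3a longer than 97.5% and Tet2 longer than 97.0% of tested genes. The others tested were less extreme, with Dnmt1 longer than 86.2%, Dnmt3b longer than 71.1% and Tdg longer than 58.2%. Among the saline livers, replicate 49 had the highest value for 5 of the 7 genes (Dnmt1, Dnmt3a, Tet1, Tet2 and Tet3). The log2 fold changes of the tested enzymes are therefore also given without it. The target genes that served the study as a check of its inhibitor were higher in LNA29 livers for Col3a1 (650.1 ± 253 against 222 ± 57.6, SD, n = 6 each, log2 fold change 1.48, limma adjusted p = 0.0438, and 1.49 without replicate 49), while for Col1a1 the values were 392 ± 199 against 228 ± 80.4 (log2 fold change 0.70 with and without replicate 49, limma adjusted p = 0.688). The study's own check used quantitative PCR, for Col1a1 in more mice than were sequenced, and it reported both genes as increased in liver.

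Dnmt3a, Dnmt3b, Tet3 and Tdg were higher in LNA29 livers than in saline livers, and Dnmt1 and Tet2 were not shown to differ. Each gene was compared with a two-sided exact permutation test of the mean log2(value + 1), over all 924 divisions of the 12 livers, at a threshold of 0.05. Of the 6 genes that could be tested 4 rose and none fell. Over all 12486 tested genes the same test called 2.15% higher and 6.34% lower. The enzymes were chosen with earlier results of these data known, so this contrast is a description and not an independent comparison. No member passed after adjustment over all tested genes with limma, where 0.160% of genes (20) did. Their median log2 fold change was 0.76, beside -0.093 over all tested genes.

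**Figure D1:**
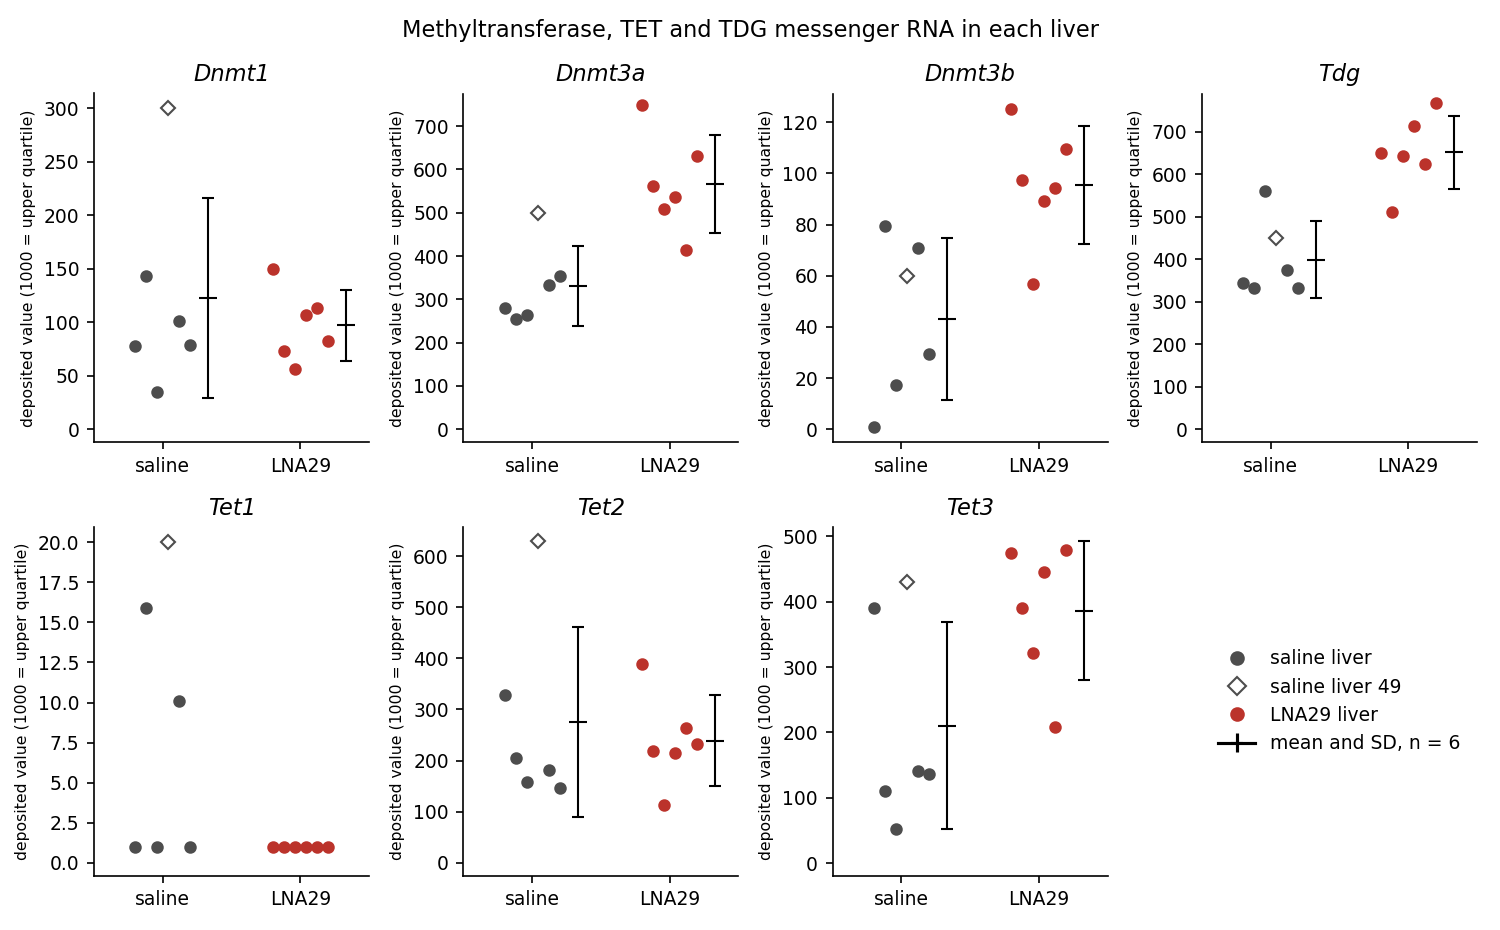
Deposited value (1000 = upper quartile of expressed genes; 1 = no reads) of each enzyme in each of 6 saline and 6 LNA29 livers, with the mean and SD of each group beside the points except for Tet1. For Dnmt3a and Tdg 5 of 6 LNA29 livers lie above every saline liver, whereas the groups overlap broadly for Dnmt1 and Tet2, and saline replicate 49 (open diamond) is the highest saline liver for Dnmt1, Dnmt3a, Tet1, Tet2 and Tet3.

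Among the writers, Dnmt3a, the main de novo methyltransferase of adult tissues, had values of 254, 307 and 500 (lowest, median and highest) in saline livers. In LNA29 livers the lowest, median and highest were 415, 548 and 750. Only the LNA29 liver with 415 fell within the saline range, and the saline liver at 500 was replicate 49; the reads behind these values were 15 to 50 in saline and 22 to 60 in LNA29 livers. The means were 567 ± 114 against 331 ± 91.7 (SD, n = 6 each), and the log2 fold change was 0.79 ± 0.22 (SE, exact permutation p = 0.00433, limma adjusted p = 0.211). Without replicate 49 the log2 fold change was 0.92 (exact permutation p = 0.00433). Dnmt3aos, an annotated antisense RNA, shares 133 exon bases with Dnmt3a, and the library kit was not stated to keep strand, so reads from these bases cannot be assigned. Reads of the processed pseudogene Dnmt3a-ps1 were not analysed apart from those of Dnmt3a.

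Dnmt3b, the other de novo enzyme, was near the limit of detection. Saline livers had between 0 and 7 reads, and LNA29 livers had between 3 and 10. The lowest, median and highest values were 1, 44.7 and 79.4 in saline livers, where 1 liver (replicate 43) had no read. In LNA29 livers they were 56.6, 96.0 and 125, and 5 of 6 LNA29 livers were above every saline liver. The log2 fold change was 1.79 ± 0.74 (SE, exact permutation p = 0.0152, limma adjusted p = 0.521). Its size rests on the saline liver listed at 1, since it was 1.04 without saline replicate 43 (exact permutation p = 0.0195) and 2.03 without replicate 49 (p = 0.0130, exact). Leaving out LNA29 replicate 44 or 54 gave a log2 fold change of 1.71 or 1.74 with an exact permutation p of 0.0541 or 0.0519.

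Dnmt1, the maintenance enzyme, had 2 to 30 reads in saline and 3 to 12 in LNA29 livers. Its values were 35.1, 89.7 and 300 (lowest, median and highest) in saline livers and 56.6, 94.7 and 150 in LNA29 livers, and the LNA29 range lay within the saline range. The highest saline value belonged to replicate 49. The log2 fold change was -0.099 with a 95% limma interval from -1.05 to 0.85 (exact permutation p = 0.846), and 0.22 without replicate 49 (exact p = 0.584). The interval includes the difference seen for Dnmt3a.

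Among the erasers, Tet3 had 3 to 43 reads in saline and 11 to 38 in LNA29 livers. Saline values were 52.6, 139 and 430 (lowest, median and highest), with replicates 43 and 49 far above the other 4. LNA29 values were 208, 418 and 479, and 3 of 6 LNA29 livers exceeded every saline liver. The means were 387 ± 106 against 211 ± 158 (SD, n = 6 each), and the log2 fold change was 1.18 ± 0.43 (SE, exact permutation p = 0.0346, limma adjusted p = 0.433). Without replicate 49 it was 1.46 (exact permutation p = 0.0152). The call was fragile: it held in 3 of the 12 comparisons that each left out 1 liver, those without saline replicate 43 (p = 0.0216, exact), saline replicate 49 or LNA29 replicate 52 (p = 0.0346, exact). In the other 9 the exact permutation p was between 0.0541 and 0.0801, with the lowest log2 fold change, 0.85, without saline replicate 47.

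Tet2 had 9 to 63 reads in saline and 6 to 31 in LNA29 livers. Its values were 147, 194 and 630 (lowest, median and highest) in saline and 113, 226 and 388 in LNA29 livers, and the top saline value was again that of replicate 49. The log2 fold change was -0.084 with a 95% limma interval from -0.85 to 0.69 (exact permutation p = 0.846), and it was 0.20 without replicate 49 (exact p = 0.548). Tet2 has 5 seed matches, as many as Dnmt3a, and a difference of the size of that of Dnmt3a lies outside this interval, although only just. The interval is from the fit with replicate 49, and none is given for the estimate of 0.20 without it. Whether Tet2 changed less than Dnmt3a was not tested. The antisense gene Gm42567 shares 43 exon bases with Tet2.

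Tet1 was at or under 3 reads in every liver. It had 4 reads in all over the 6 saline livers, in replicates 45, 49 and 51, and none in the 6 LNA29 livers. The floor used here, 3 reads, would correspond to values between 29.4 and 73.2 in the 12 livers, so that levels below these could not be told from absence and no fold change or test is given.

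Tdg, which removes the oxidised bases that TET enzymes make, had 21 to 45 reads in saline and 21 to 56 in LNA29 livers. Its values were 333, 359 and 561 (lowest, median and highest) in saline livers and 512, 646 and 767 in LNA29 livers. In 5 of 6 saline livers Tdg lay below every LNA29 liver, and the exception was replicate 47 at 561. The means were 651 ± 86.8 against 399 ± 90.9 (SD, n = 6 each), and the log2 fold change was 0.72 ± 0.19 (SE, exact permutation p = 0.00433, limma adjusted p = 0.187), and 0.76 without replicate 49 (exact permutation p = 0.00433). Glt8d2 shares 367 exon bases with Tdg on the opposite strand, and reads of the processed pseudogene Tdg-ps were not analysed apart from those of Tdg.

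**Figure D2:**
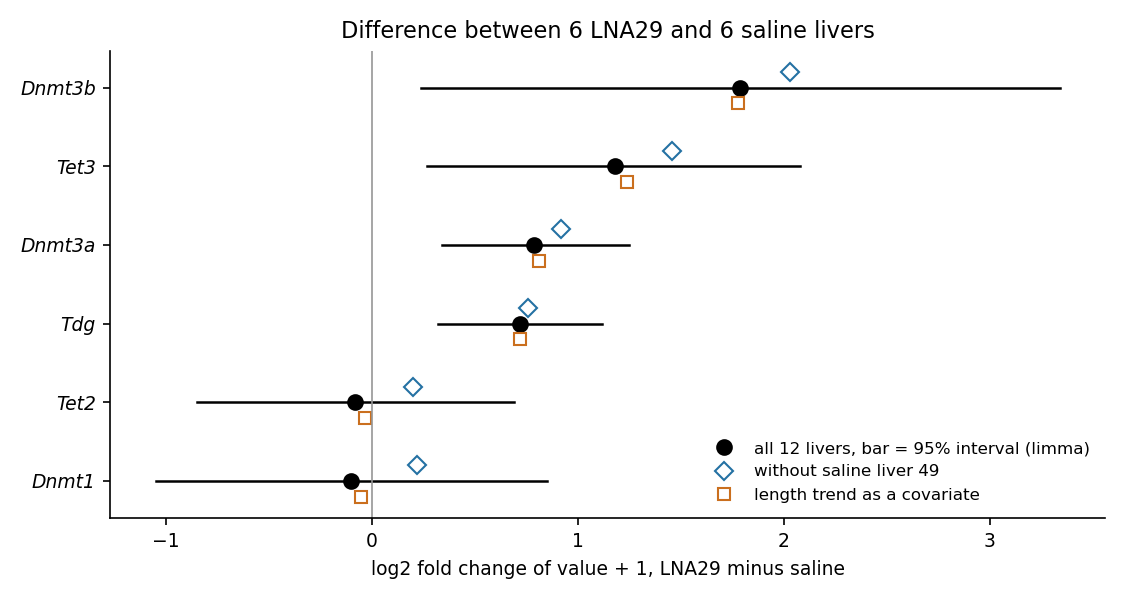
Log2 fold change of value + 1 (LNA29 minus saline, x axis) of the 6 enzymes with enough reads, from all 12 livers with the 95% limma interval (bar), without saline replicate 49 (open diamonds) and with the length trend of each library as a covariate (open squares). The intervals of Dnmt3b, Tet3, Dnmt3a and Tdg lie above 0, and those of Tet2 and Dnmt1 span it.

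Because long transcripts differed between libraries, the fit was repeated with the length trend of each liver as a covariate. The mean rho of the trend was 0.0146 in saline and -0.00472 in LNA29 livers, but -0.0820 in the 5 saline livers other than replicate 49. The log2 fold changes moved little, to 0.81 ± 0.18 for Dnmt3a, 1.24 ± 0.27 for Tet3 and 0.72 ± 0.17 for Tdg (SE), while the error of Tet3 shrank from 0.43. The limma adjusted p became 0.0412 for Dnmt3a, 0.0347 for Tet3 and 0.0555 for Tdg, in a fit that called 0.993% of tested genes (124 genes). Dnmt3b stayed at an adjusted p of 0.326. With array weights, which give libraries far from their group less influence, Tdg had a limma adjusted p of 0.0391, Dnmt3a 0.0745 and Tet3 0.109.

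Reads of 1 enzyme over those of another in the same liver do not depend on the scaling of that liver. Ratios are given for 3 pairs within a family, each of a gene that rose and a gene that was not shown to differ. They were chosen after the values of the single genes had been seen, so the ratios are a description with no test. The log2 differences given with them use value + 1 and so depend on the pseudocount where a gene had no read. The ratio of Dnmt3b to Dnmt1 ran from 0 to 0.70 over the saline group and from 0.833 to 1.33 over the LNA29 group, with no overlap (log2 difference 1.89, and 1.81 without replicate 49). Its size rests partly on saline replicate 43, where Dnmt3b had no read. It was 1.21 without that liver and 1.28 with a pseudocount of 1 read. With Dnmt3b at 0 to 10 reads these ratios are coarse. The ratio of Tet3 to Tet2 had a median of 0.730 in saline livers (0.333 to 1.19) and of 1.92 in LNA29 livers (0.786 to 2.83), with a log2 difference of 1.26 with and without replicate 49. Both transcripts are long, and replicate 49, which was the highest saline liver for each, lay within the other saline livers for their ratio at 0.683. The ratio of Dnmt3a to Dnmt1 had a median of 3.45 in saline livers (1.67 to 7.5) and of 6.33 in LNA29 livers (3.67 to 9.0), a log2 difference of 0.89, and of 0.70 without replicate 49.

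**Figure D3:**
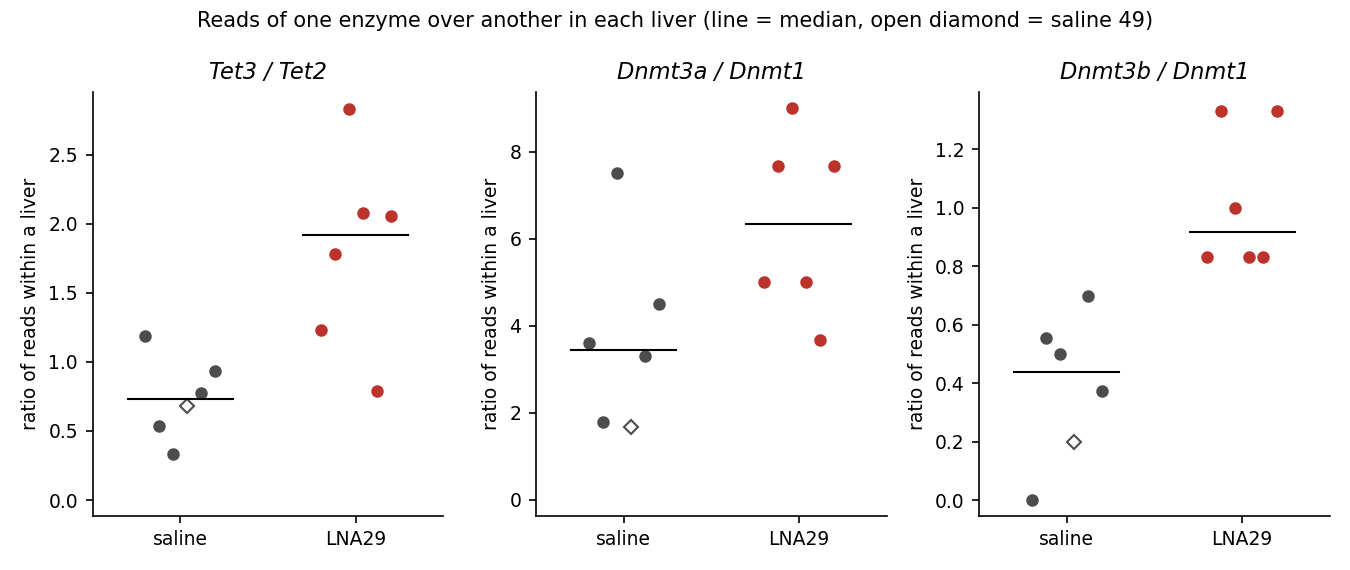
Ratio of the reads of 2 enzymes within each liver (y axis, linear) for 6 saline and 6 LNA29 livers, with group medians as lines and saline replicate 49 as an open diamond. The LNA29 livers lie above all saline livers for Dnmt3b over Dnmt1, 5 of 6 do for Tet3 over Tet2, and the groups overlap more for Dnmt3a over Dnmt1.

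To set the enzymes in order of level, values were divided by the length in kb of the longest coding transcript, and genes without reads were set to 0. On this per-length scale Tdg was the most abundant in all 12 livers, with medians of 102 in saline and 184 in LNA29 livers, and it exceeded 58.8% of tested genes. Dnmt3a came next, with medians of 31.7 and 56.6, and was above Tet3 in 11 of 12 livers. The order of Tet3 and Tet2 differed between the groups: Tet3 was above Tet2 in 1 of 6 saline livers and in 5 of 6 LNA29 livers. Within the summed TET level, Tet3 made up a median of 37.4% in saline livers (21.9% to 50.1%) and 61.7% in LNA29 livers (39.8% to 70.5%). Dnmt3b and Dnmt1 could not be ordered over all livers, since Dnmt3b was above Dnmt1 per kb in 6 of 6 LNA29 livers and in 0 of 6 saline livers. Dnmt1 made up 28.4% of the summed methyltransferase level in saline livers (16.1% to 43.8%) and 16.4% in LNA29 livers (12.8% to 23.0%), and Dnmt3a 57.5% and 60.5%. These levels and shares include saline replicate 49, which had the highest saline level of Dnmt1 (51.1), and are not given without it. Tet1 was below all others, with a median of 0.351 in saline livers and 0 in LNA29 livers. The lengths are those of the reference and not of the isoforms that liver expresses, so that an order between close neighbours depends on them.

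**Figure D4:**
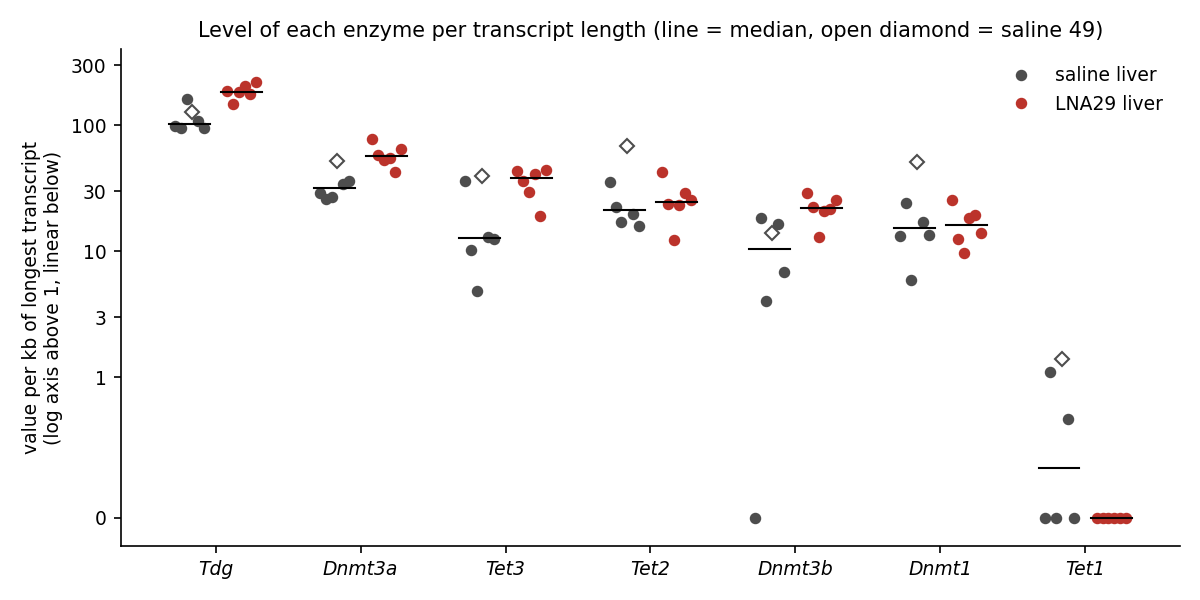
Value per kb of the longest coding transcript (log axis above 1, linear below) of each enzyme in each liver, ordered by the median over 12 livers, with group medians as lines. Tdg is the highest in every liver, and Tet3 lies above Tet2 in the LNA29 medians (38.4 against 24.6) and below it in the saline medians (12.8 against 21.1).

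Marker genes of the liver's cell types were compared between the groups as a view of cell composition. In whole liver fewer cells of a type and less RNA per cell cannot be told apart, and the markers do not show which cells the reads of the enzymes came from. All 6 hepatocyte markers were among the tested genes, and 0 of 6 passed the permutation test (median log2 fold change 0.14). Without replicate 49 the median was -0.086 and 1 of 6, the cytochrome P450 gene Cyp2e1, was lower (log2 fold change -0.59, exact p = 0.0411). Their summed level was lowest in saline replicate 49 (33258146), with a median of 90723277 over the saline livers, and lay between 81046986 and 96610530.4 in LNA29 livers. No gene passed among 8 stellate cell, 8 endothelial, 6 lymphocyte and 6 bile duct markers tested. Abundant genes carry most of such a sum, as Alb does for hepatocytes and Dcn and Colec11 do for stellate cells. A change in a scarce marker could not be seen in it. The summed stellate cell markers were between 4808 and 5298 in saline and 4122 and 5904 in LNA29 livers (exact permutation p = 0.502), and the summed endothelial markers between 4947 and 5940 and between 4377 and 5836 (exact p = 0.0952). The summed Kupffer cell and macrophage markers were between 9516 and 15474 and between 8536 and 19041 (exact p = 0.786), although 1 of 8, the scavenger receptor Marco, rose (log2 fold change 1.08, exact permutation p = 0.0368; 1.0 with p = 0.0649, exact, without replicate 49). Marco did not pass without saline replicate 43 or 53 or LNA29 replicate 54 either (log2 fold change 0.98, 1.01 and 0.73, exact p = 0.0671, 0.0628 and 0.0541). The summed lymphocyte markers were between 381 and 910 in saline and 268 and 755 in LNA29 livers, with Ms4a1 at 3 reads or fewer throughout, and the summed bile duct markers between 603 and 906 and between 439 and 1169.8. Of the neutrophil markers only 1 was tested, with S100a8 and Mpo at 3 reads or fewer in every liver, and their sum was at most 47.6 in saline and 56.6 in LNA29 livers. The 2 erythroid markers summed to between 2158 and 6338 in saline and 2656 and 17732 in LNA29 livers, with neither past the test. The part of cell composition in the differences of the 7 enzymes was not tested.

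The wider pathway was described with lists of genes, by the number past the permutation test in each direction and by the median log2 fold change; the background shares are again 2.15% higher and 6.34% lower. The 11 pathway genes named below as past the test also passed without replicate 49, when 2.54% of tested genes were called higher and 5.91% lower. Of 13 partners of the methyltransferases, 10 were tested, 1 rose and none fell, with a median log2 fold change of 0.026 (0.065 without replicate 49). The one that rose was the histone deacetylase Hdac2 (log2 fold change 0.39, exact permutation p = 0.0476, limma adjusted p = 0.700), which lost the call without any of 6 livers (saline replicate 45, 47 or 51, LNA29 replicate 44, 52 or 54; exact p between 0.0779 and 0.0909, log2 fold change 0.31 to 0.37). Uhrf1, which brings DNMT1 to replicated DNA, and the helicase gene Hells had 3 reads or fewer in every liver, and Dnmt3l, the catalytically inactive partner of the de novo enzymes, had no reads.

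Of 13 genes for partners of the TET enzymes and for the supply of 2-oxoglutarate, 11 were tested, none rose and 3 fell, with a median of -0.24 (-0.090 without replicate 49). Cxxc5, a CXXC zinc finger protein, had values of 600.4 ± 90.0 in LNA29 and 769 ± 43.2 in saline livers (SD, n = 6 each, log2 fold change -0.37, exact permutation p = 0.00216, limma adjusted p = 0.568), and every LNA29 liver was below every saline liver. Idh3b, a subunit of the mitochondrial isocitrate dehydrogenase that makes 2-oxoglutarate, had 3587 ± 297 against 4617 ± 468 (log2 fold change -0.36, exact permutation p = 0.00216, limma adjusted p = 0.347), again with no overlap. Idh3g, another subunit of the same enzyme, fell too (log2 fold change -0.33, exact permutation p = 0.00433, limma adjusted p = 0.534). The third subunit gene, Idh3a, had a log2 fold change of 0.28 and did not pass (exact p = 0.439). After all livers were brought to the same median, Cxxc5, Idh3b and Idh3g still passed (exact permutation p = 0.0130, 0.0195 and 0.0433). Groups without overlap give the smallest possible exact p, 0.00216, so Cxxc5 and Idh3b did overlap on that scale. The share of all tested genes without overlap was not counted.

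Of 25 genes of the repair that follows TDG and of related deamination, 22 were tested, 1 rose and none fell, with a median of -0.14 (-0.21 without replicate 49). The one that rose was Gadd45b, a stress-induced gene linked to active demethylation, at 832 ± 224 in LNA29 and 433 ± 161 in saline livers (SD, n = 6 each, log2 fold change 0.97, exact permutation p = 0.00649, limma adjusted p = 0.141 and, with the length trend as a covariate, 0.0457). The glycosylases Neil1, Nthl1 and Smug1, the repair polymerase Polb and the scaffold Xrcc1 did not pass the test. None of the 10 methyl-CpG binding proteins passed (median log2 fold change -0.017, and 0.19 without replicate 49).

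The S-adenosylmethionine cycle supplies the methyl groups that the DNMTs use. All 21 of its listed genes were tested, none rose and 5 fell, while the median log2 fold change was -0.0075 and was 0.081 without replicate 49. Gamt, which uses S-adenosylmethionine to make creatine, had 4410.3 ± 1608 in saline and 2097 ± 799 in LNA29 livers (SD, n = 6 each) and fell, with a log2 fold change of -1.06 (exact permutation p = 0.00866, limma adjusted p = 0.128). The folate enzymes Shmt2, Mthfd1 and Shmt1 had log2 fold changes of -0.36, -0.29 and -0.24 (exact permutation p = 0.00649, 0.0152 and 0.0390, limma adjusted p = 0.372, 0.597 and 0.705). Shmt1 and Shmt2 did not pass after all livers were brought to the same median (exact p = 0.139 and 0.0584). Shmt1 also failed without saline replicate 43, 45 or 53 or LNA29 replicate 44, 46, 50 or 52 (log2 fold change -0.19 to -0.24, exact p between 0.0649 and 0.0779). Mtr, the methionine synthase, had 2 to 5 reads in saline and 0 to 2 in LNA29 livers (exact permutation p = 0.00866), too few for a fold, and did not pass with a pseudocount of 1 read (exact p = 0.0519) or with the length covariate (limma p = 0.0552, unadjusted). Mat1a and Ahcy, the liver's abundant enzymes for making S-adenosylmethionine and for clearing its product, had log2 fold changes of 0.31 (exact p = 0.316) and 0.17 (exact p = 0.359).

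Since DNMT1 and UHRF1 follow the cell cycle, genes of S phase and mitosis were listed as well. Of 18 genes 15 were tested, and 6 had 3 reads or fewer in every liver; 1 rose and none fell (median -0.094, and 0.039 without replicate 49). The one that rose was the helicase subunit Mcm6, at 3 to 6 reads in LNA29 and 1 to 6 in saline livers (log2 fold change 1.06, exact permutation p = 0.0238), and it did not pass without LNA29 replicate 44, 46 or 52 (log2 fold change 0.96 to 1.03, exact p between 0.0584 and 0.0671) or with array weights (0.91, limma p = 0.0704, unadjusted). Imprinted genes and germline genes carry methylation at their control regions. Among 19 imprinted genes 14 were tested and none passed (median 0.0089, and 0.24 without replicate 49). Of 18 germline genes that methylation keeps silent, 14 had no reads in any of the 12 livers and 17 had 3 reads or fewer in every liver, Ddx4 and Piwil2 included.

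**Figure D5:**
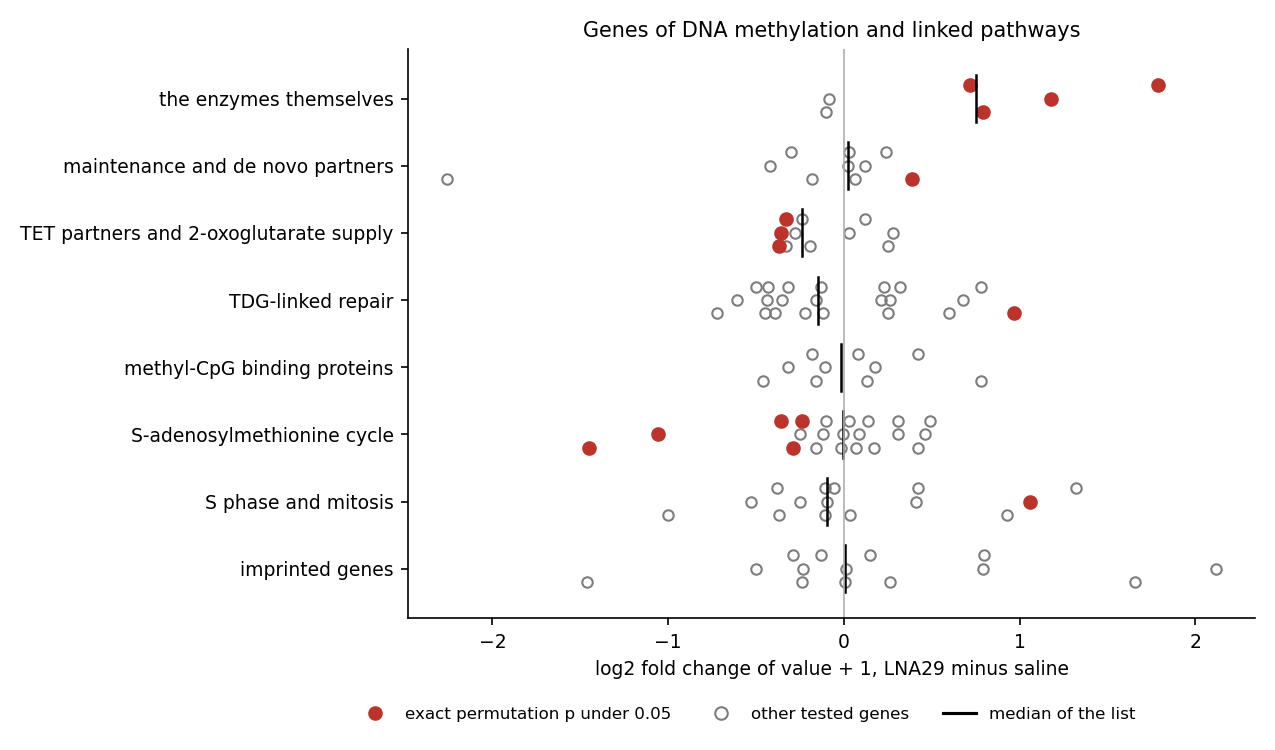
Log2 fold change of value + 1 (LNA29 minus saline, x axis) of every tested gene in each list, with genes past the exact permutation threshold as filled red points and list medians as black lines. The median of the 6 enzymes is 0.76, whereas the medians of the 7 other lists lie between -0.24 and 0.026 (0.84 and between -0.21 and 0.24 without replicate 49).

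For each enzyme with a mean of at least 3 reads, the 3 genes with the most similar pattern were sought by Pearson r of log2(value + 1) over the 12 livers among 5747 genes with at least 10 reads in every liver. These r describe livers that share scaling and, in part, the length trend, and carry no test. Tet2 was most like Tob2, 2010106G01Rik and Slc4a4 (r = 0.95 each, and 0.91 to 0.94 without replicate 49), and Dnmt1 was most like Ubn2 (0.93), Lrrc47 (0.91) and Parp4 (0.90). Tet3 was most like Ddx3x (0.92), Zfp91 (0.88) and Atxn7l3b (0.87). Dnmt3a was most like Eif3j (0.92), Ttpa (0.90) and Lysmd1 (0.89). Tdg was most like Eln, the elastin gene (0.90), Lysmd1 (0.88) and Ifi30 (0.87), and r with Eln was 0.63 once the group means were removed. Dnmt3b was most like Rnf215 (0.83), Dcakd (0.82) and 2310008H09Rik (0.81). Between the enzymes themselves r was highest for Dnmt3a with Tet3 (0.79), for Dnmt1 with Tet2 (0.78) and for Dnmt3a with Tdg (0.72). With the group means removed the r of Dnmt3a was 0.64 with Tet3 and 0.14 with Tdg, while Dnmt1 with Tet2 stayed at 0.78 and was 0.59 without replicate 49.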

How the data were processed

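Livers of 6 saline-treated and 6 LNA29-treated mice were profiled by mRNA sequencing, 1 library each. The authors mapped the reads with MapSplice2 and estimated reads per gene with RSEM; mm9 is the build in the submitters' processing notes. The deposited signal is that estimate scaled to an upper quartile of 1000 (998 in saline replicate 49), with 1 for genes without reads. In each liver between 92.2% and 93.9% of values were whole multiples (within 0.02) of the worth of 1 read, from which reads were described. The deposited table also holds means, signed fold changes (a score) and p-values of the authors, none of which were used, nor were 3 columns without a name.

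Groups were taken from the sample labels. The exact permutation test used log2(value + 1). limma 3.58.1 (R 4.3.3) with a trend was fitted to 12486 genes whose mean reached 10, and its p-values were adjusted by Benjamini-Hochberg. Python 3.11.15 (scipy 1.17.1, numpy 2.4.6, pandas 2.3.3, matplotlib 3.10.9) served for the rest. Scripts were tested on simulated data. At most 3 reads in every liver was the floor for a fold among the 7 enzymes. It was not applied to the lists, whose medians and plot hold every tested gene, also those at or under this floor. Mtr was above it in some saline livers but was given no fold in the text. Named are the 7 enzymes, list genes past 0.05 (at most 6 per list) and those needed for small counts, Col1a1, Col3a1, and the 3 most similar genes per enzyme; genes named as not passing, and the 3 ratios, were chosen after their values were seen. The enzymes and lists were chosen with earlier results of these data known. Ly6g and Hba-a1 had no match by symbol. Alternatives were other pseudocounts, filters and scalings, array weights, a length covariate and leaving out each liver.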

Additional observations from a re-analysis of the deposited data

Results flagged for a closer look

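In 36 groups of 6 livers (the 6 tested enzymes and the list genes past the permutation threshold, each in both groups), 2 had a liver whose gap to the nearest other was too large a share of the group's range by Dixon's test at 95%, on the log2(value + 1) scale. Chance gives about 1 in 20 groups, or 1.80. The values of the 6 tested enzymes gave none. Mtr was at 1.0 in LNA29 replicate 50, where it had no read, with the other LNA29 livers between 4.31 and 4.83. Gamt was at 11.84 in LNA29 replicate 48, with the other LNA29 livers between 10.53 and 11.02.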

How the results depend on the processing

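Dnmt3a (0.71 to 0.92), Tdg (0.67 to 0.82), Dnmt3b (1.04 to 2.10) and Tet3 (0.85 to 1.46) kept their direction without each liver in turn, and 12 of 12, 12 of 12, 10 of 12 and 3 of 12 of these comparisons passed the exact permutation threshold. The number of enzymes past it was 2 to 4. Dnmt1 (-0.39 to 0.22) and Tet2 (-0.24 to 0.20), with intervals that span 0, changed sign without some livers, and with array weights were 0.042 and 0.24. A pseudocount of 1 read, chosen after seeing the data, gave 1.23 for Dnmt3b, which a minimum mean of 100 removed. The genes past the limma adjusted threshold were 20, but 5 without a filter, 10 with a common median, 58 with array weights, 124 with the length covariate and 1 to 29 without each liver; the cause was not tested. The common median moved the median log2 fold change of all tested genes from -0.093 to -0.048. The medians of methyl-CpG binding proteins (0.19), the S-adenosylmethionine cycle (0.081) and S phase genes (0.039) changed sign, and that of imprinted genes became 0.24, without saline replicate 49, an alternative added after seeing the data. The 12 list genes past the permutation threshold and both collagens kept their direction in 252 comparisons under alternatives, of which 26 lost the call and 2 gained it (Col1a1). Fits with edgeR, DESeq2 and TMM scaling were not run, since a check for whole numbers was not passed in every liver. That check took the value of 1 listed for genes without reads as the step between values. No paired analysis was possible because the 2 groups share no replicate number. Dnmt1, Dnmt3b and Tet1 had the fewest reads, at most 30, 10 and 2 in a liver.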
